A study of Danio rerio with 3 samples.

Results

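The genes described here encode the respiratory chain and the ATP synthase of the zebrafish, in both the nuclear and the mitochondrial genome. Members were taken by symbol, as every gene whose name begins with nduf, uqcr, sdha to sdhd, cox4 to cox8, cyc1, cycs or cycb, atp5 or mt-. The rule found 114 of the 35117 genes of the table, 101 of them nuclear and 13 mitochondrial. RNA came from whole, untreated wild-type embryos, raised from a cross of wild-type fish and collected 10 hours post fertilization (10 hpf, the end of gastrulation; 2 libraries) or 6 hpf (the start of gastrulation; 1 library). Levels are in RPKM, the reads on a gene scaled to its length and to the size of the library. There is 1 such value per gene and stage, the 10 hpf value covering both libraries, so no level carries an error and no test of the difference could be made here. Whether the reads of both libraries were pooled or their values averaged is not given in the labels. The labels give neither the number of embryos pooled nor the clutch, and in whole embryos fewer cells of a type and less RNA per cell cannot be told apart.

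Respiration runs through 4 complexes of the inner mitochondrial membrane. Complex I takes electrons from NADH and complex II from succinate, ubiquinone carries them to complex III, cytochrome c carries them to complex IV, and complex IV passes them to oxygen. Complexes I, III and IV pump protons, and the ATP synthase, also called complex V, uses the returning protons to make ATP. Complexes I, III, IV and V are built from subunits of both genomes, complex II from nuclear subunits alone. The oocyte supplies the embryo with its mitochondria, and the zygotic genome has been active since before gastrulation.

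Depth could be read from the mitochondrial genes themselves. With the gene lengths of the RefSeq annotation of assembly GRCz12tu, all 13 mitochondrial values at each stage correspond to whole reads within 0.15 reads when the totals are 23243215 reads at 10 hpf and 16991535 reads at 6 hpf. The 10 hpf total, its read numbers and its counting intervals hold if that value comes from 1 pool of reads. Which reads the totals count, such as all mapped reads or those assigned to genes, is not given in the labels. On these totals 1 RPKM stands for 23.2 reads per kilobase at 10 hpf and 17.0 at 6 hpf. Genes chosen as stage markers followed the labels. They were chosen with earlier results of these data known, so the match is no independent check. The 4 genes of late gastrulation (rx3, meox1, myf5 and neurog1) summed to 150 RPKM at 10 hpf and 1.12 RPKM at 6 hpf, and the 4 genes of early gastrulation (pou5f3, mixl1, sox32 and nnr) to 87.7 RPKM at 10 hpf and 1107 RPKM at 6 hpf.

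By RPKM, nuclear-encoded subunits summed higher at 10 hpf, whereas mitochondrially encoded mRNAs did not. The 91 nuclear subunits summed to 4539 RPKM at 10 hpf and 2792 RPKM at 6 hpf, a ratio of 1.63, while the 13 mitochondrial mRNAs summed to 15195 RPKM at 10 hpf and 16534 RPKM at 6 hpf, a ratio of 0.919. Over all genes the ratio of the sums was 1.01. The nuclear sum was thus 0.299 of the mitochondrial sum at 10 hpf and 0.169 of it at 6 hpf. Nuclear members were led at both stages by cycsb, the gene of cytochrome c, and mitochondrial ones by mt-co1, a catalytic subunit of complex IV.

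Calls were those of the authors' deposited table, at an empirical false discovery rate under 0.05. With 1 library at 6 hpf, that rate cannot cover a spread between replicates of this stage. Of the nuclear members 17 were higher at 10 hpf by that criterion, 10 were lower and 74 had no call. Of the mitochondrial mRNAs 0 were higher, 5 were lower and 8 had no call. Over all genes the shares were 9.70% called higher, 19.8% called lower and 29.5% called either way. Among genes with at least 5 RPKM at either stage, a level that 82 of the 101 nuclear members and all 13 mitochondrial mRNAs reach, the shares were 13.9% higher and 36.1% lower. Nuclear members were higher in 16.8% and lower in 9.90% of cases. The first share was above the 9.70% of all genes but near the 13.9% at 5 RPKM or more, and the second was below both background shares. Of the 82 nuclear members at 5 RPKM or more, 14 were called higher and 6 lower. Mitochondrial mRNAs were lower in 38.5% of cases, near the 36.1% of all genes at 5 RPKM or more, a level far under their own.

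The fold behind these calls is on another scale than the RPKM values. Over the 7009 genes at 5 RPKM or more at both stages, 86 of them members, the authors' deposited table gives a log2 fold that is at the median 0.60 under that of RPKM, a factor of 1.52, so that a 1.52-fold higher RPKM corresponds to no change on the authors' scale. Among members, the smallest RPKM ratio called higher was 3.05 (cox7b) and the largest called lower was 0.839 (mt-atp6). A 3.01-fold higher RPKM of cox4i1 was not called. To set the scales apart, folds were also centred on the median gene at 5 RPKM or more, whose RPKM was 1.06 times as high at 10 hpf. After that step 17 nuclear members were still called higher and 4 lower, and 0 mitochondrial mRNAs remained called lower. Adding a constant in this way makes no new calls and could only remove lower ones. Over all genes 9.70% remained called higher and 13.4% lower, and over genes at 5 RPKM or more 13.9% and 25.0%.

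Of the 114 members, 105 reached 1 RPKM at either stage, 3 of them at 10 hpf alone and 4 at 6 hpf alone. The 9 others did not exceed 0.589 RPKM and are described with the duplicated genes. Over the 82 nuclear subunits at 1 RPKM or more the median log2 ratio of 10 hpf over 6 hpf, with a pseudocount of 1, was 0.67, with quartiles of 0.07 and 1.34. Over the 13 mitochondrial mRNAs it was −0.14 (quartiles −0.30 and 0.20), and over 17494 genes of the table at that level 0.14 (quartiles −0.71 and 0.92). The RPKM was higher at 10 hpf for 63 of the 82 nuclear subunits (76.8%), for 6 of the 13 mitochondrial mRNAs (46.2%) and for 55.0% of all genes. The fold of the authors' deposited table had a median of 0.09 (log2) for nuclear subunits and −0.76 for mitochondrial mRNAs. Measured from the median gene, these were 0.59 and −0.26.

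**Figure D1:**
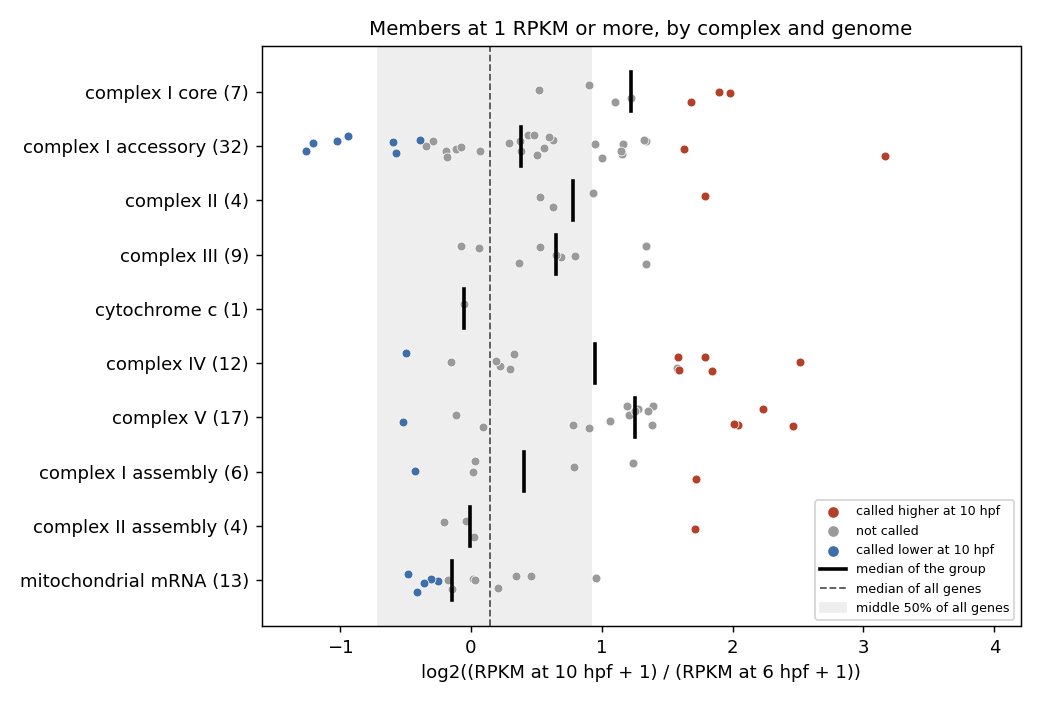
Each point is 1 member at 1 RPKM or more, placed by its log2 ratio of RPKM at 10 hpf over 6 hpf (pseudocount 1, horizontal axis) in the row of its group, with the number of members in brackets; point colours give the authors' call, black bars the group median, the dashed line and grey band the median and middle 50% of all genes, and vertical scatter within a row has no meaning. Group medians run from −0.14 for mitochondrial mRNAs to 1.25 for complex V and 1.23 for the core of complex I.

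Ordered by the median RPKM ratio, the groups ran from complex V (log2 ratio 1.25) through the core of complex I (1.23), complex IV (0.95), complex II (0.78), complex III (0.65), assembly factors of complex I (0.41), accessory subunits of complex I (0.38) to assembly factors of complex II (−0.01). In the authors' deposited table the median log2 fold was 0.72 for complex V and 0.65 for the complex I core, but −0.19 for the accessory subunits and −0.08 for complex I assembly factors, so no direction is given for those last groups. The place of complex IV rests on cox4i2, listed at 0 at 6 hpf: at 5 RPKM or more its median was 0.33. Neighbours in this order cannot be ranked, because no spread between replicates was available. At least 2-fold more RPKM at 10 hpf was seen in 12 of 17 members of complex V, 5 of 7 of the complex I core, 6 of 12 of complex IV, 8 of 32 accessory subunits and 2 of 9 of complex III. For all genes at 1 RPKM or more the share was 29.7%.

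The core of complex I means here its nuclear-encoded subunits that carry the flavin and the iron-sulfur clusters and bind ubiquinone. The 7 mitochondrial genes of complex I are counted apart. In this nuclear-encoded core 3 of 8 members were called higher and 0 lower. The higher share was 37.5%, beside 9.70% of all genes and 13.9% of genes at 5 RPKM or more. The gene ndufs3 had 29.3 RPKM at 10 hpf and 6.68 RPKM at 6 hpf, a ratio of 4.39. For ndufv1, whose protein binds NADH and the flavin, the values were 14.2 RPKM at 10 hpf and 3.09 RPKM at 6 hpf, a ratio of 4.60. The largest iron-sulfur subunit, ndufs1, stood at 23.5 RPKM at 10 hpf and 6.65 RPKM at 6 hpf, a ratio of 3.54. At 6 hpf these 3 genes and ndufv2 were the least abundant of the 7 core genes above 1 RPKM, while at 10 hpf ndufs3 stood level with ndufs7.

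Core subunits without a call also had more RPKM at 10 hpf. The ubiquinone-site subunit ndufs7 had 29.3 RPKM at 10 hpf and 11.97 RPKM at 6 hpf. For ndufs8a, an iron-sulfur subunit, the levels were 31.4 RPKM at 10 hpf and 16.4 RPKM at 6 hpf. The other iron-sulfur subunit of the NADH-oxidising module, ndufv2, differed least, with 5.98 RPKM at 10 hpf and 3.86 RPKM at 6 hpf. At 10 hpf it was the lowest of the 7 core genes above 1 RPKM.

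Accessory subunits of complex I surround the core and are needed for its assembly and stability. Of these, 2 of 32 were called higher (6.25%), 7 lower (21.9%) and 23 not. The shares over all genes were 9.70% and 19.8%, and over genes at 5 RPKM or more 13.9% and 36.1%. The largest ratio among all members with at least 5 RPKM belonged to ndufs4 (ENSDARG00000052840), a subunit of the NADH-oxidising arm whose loss in humans causes Leigh syndrome. Its level was 20.6 RPKM at 10 hpf and 1.40 RPKM at 6 hpf, a ratio of 14.7. Among accessory subunits the membrane-arm subunit ndufb5 followed, with 25.3 RPKM at 10 hpf and 7.48 RPKM at 6 hpf, a ratio of 3.38. Another membrane-arm subunit, ndufb10, was not called at 15.9 RPKM at 10 hpf and 5.70 RPKM at 6 hpf.

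Among the 7 accessory genes called lower were all 4 genes annotated as ndufa4 or its relatives. In mammals the NDUFA4 protein was first assigned to complex I and was later found in complex IV, and NDUFA4L2 is a relative induced by low oxygen. The abundant copy ndufa4l had 132 RPKM at 10 hpf and 197 RPKM at 6 hpf, a ratio of 0.672, and its call was not kept after centring. The copies ndufa4l2a, ndufa4l2b and ndufa4 had 3.47, 0.124 and 0.0920 RPKM at 10 hpf, against 9.35, 1.70 and 1.09 RPKM at 6 hpf, and these calls were kept. At such levels a kilobase of gene carries few reads: 1 read per kilobase is 0.0430 RPKM at 10 hpf and 0.0589 RPKM at 6 hpf.

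The fourth lower call that was kept after centring was ndufa9b, at 0.348 RPKM at 10 hpf and 1.74 RPKM at 6 hpf. Calls of ndufa3, with 12.5 RPKM at 10 hpf and 19.5 RPKM at 6 hpf, and of ndufa5, with 27.4 RPKM at 10 hpf and 36.2 RPKM at 6 hpf, were not kept. Without the ndufa4 relatives, the 28 other accessory subunits had a median log2 RPKM ratio of 0.46, and their median log2 fold was −0.077 by the authors' deposited table. Apart from ndufa4l, the most abundant accessory genes were ndufab1a, the mitochondrial acyl carrier protein, and ndufc2. They stood at 67.1 and 41.0 RPKM at 10 hpf, against 76.7 and 43.2 RPKM at 6 hpf, and were not called.

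**Figure D2:**
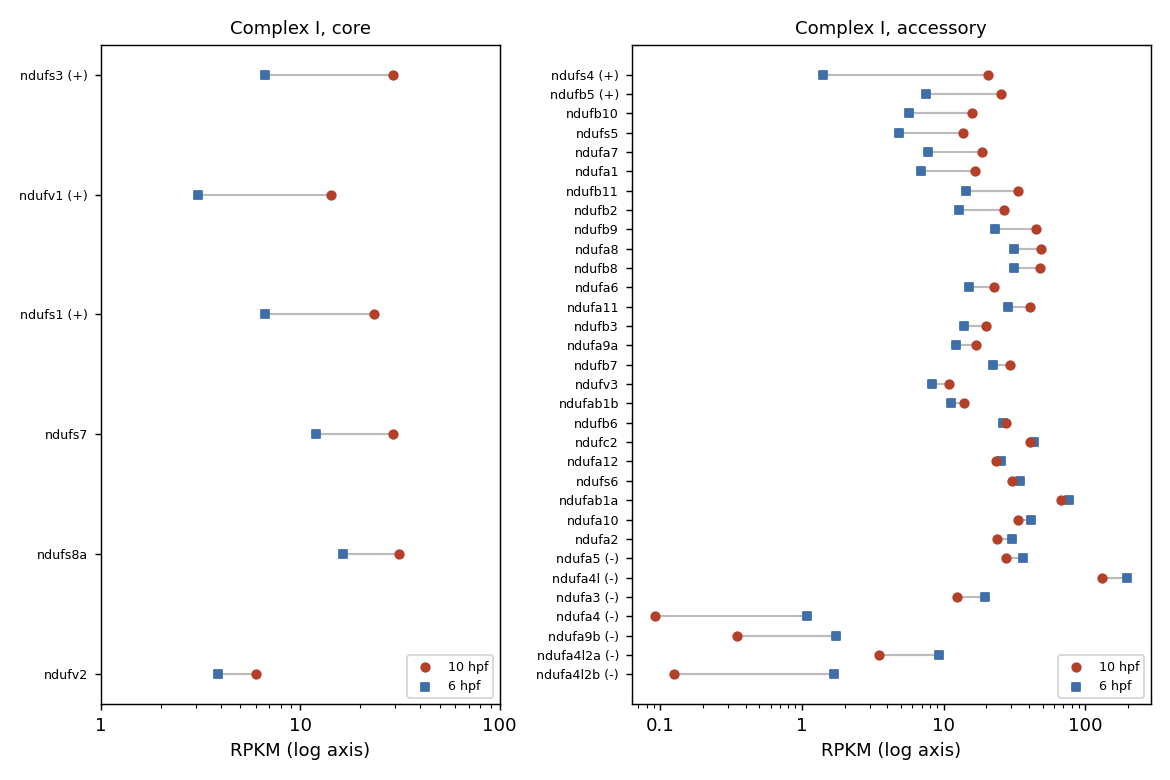
RPKM of nuclear subunits of complex I at 1 RPKM or more (log axis) at 10 hpf (red circles) and 6 hpf (blue squares), sorted by ratio with the highest on top; (+) marks a higher and (-) a lower call of the authors. The core genes drawn lie to the right at 10 hpf, while accessory genes run from ndufs4 (20.6 RPKM at 10 hpf and 1.40 RPKM at 6 hpf) to the ndufa4 relatives at the bottom.

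Assembly factors of complex I, which help to build it and are not kept in the finished enzyme, had 1 of 6 called higher and 1 lower. Each is 16.7%, beside 9.70% higher and 19.8% lower over all genes. The gene ndufaf5, whose human product modifies a core subunit, rose to 4.21 RPKM at 10 hpf, against 0.581 RPKM at 6 hpf. The most abundant factor, ndufaf1, was called lower at 24.6 RPKM at 10 hpf and 33.4 RPKM at 6 hpf, a call not kept after centring. Without ndufaf1 the sum of the group was 1.96 times as high at 10 hpf, against 1.16 times with it. Values of ndufaf4, not called, were 17.0 RPKM at 10 hpf and 6.64 RPKM at 6 hpf.

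Complex II, the succinate dehydrogenase shared with the citric acid cycle, had 1 of 5 members called higher (20.0%, beside 9.70% of all genes). This was sdhdb, encoding a membrane anchor, with 7.26 RPKM at 10 hpf and 1.39 RPKM at 6 hpf, a ratio of 5.22. The catalytic subunits sdha and sdhb had 16.8 and 10.3 RPKM at 10 hpf, against 10.5 and 4.90 RPKM at 6 hpf, and the other anchor sdhc had 15.1 RPKM at 10 hpf and 10.2 RPKM at 6 hpf. Of these, sdhdb was the lowest at both stages. Among the 4 assembly factors 1 was called higher (25.0%, beside 9.70% of all genes) and 0 lower, and their median log2 RPKM ratio was −0.01. The gene called higher was sdhaf3, which acts on the iron-sulfur subunit, at 4.56 RPKM at 10 hpf and 0.699 RPKM at 6 hpf. The most abundant, sdhaf4, stood at 8.004 RPKM at 10 hpf and 9.41 RPKM at 6 hpf.

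None (0) of the 9 nuclear members of complex III was called in either direction in the authors' deposited table, beside 29.5% of all genes. The core proteins uqcrc1 and uqcrc2a had the largest ratios, 2.68 and 2.76, with 27.6 and 18.9 RPKM at 10 hpf against 10.3 and 6.83 RPKM at 6 hpf. The catalytic subunits, cytochrome c1 (cyc1) and the Rieske iron-sulfur protein (uqcrfs1), had 86.6 and 44.7 RPKM at 10 hpf, against 59.7 and 27.4 RPKM at 6 hpf. The hinge protein gene uqcrh was the most abundant, with 148 RPKM at 10 hpf and 93.7 RPKM at 6 hpf. Levels of uqcrb were 72.2 RPKM at 10 hpf and 69.0 RPKM at 6 hpf. The mobile carrier cytochrome c, from cycsb, stood at 278 RPKM at 10 hpf and 289 RPKM at 6 hpf and was not called.

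In complex IV, cytochrome c oxidase, some genes had about 3-fold or more RPKM at 10 hpf, and the ratios of the other members at 1 RPKM or more lay between 0.704 and 1.26. Among its 18 nuclear members there were 5 higher calls (27.8%) and 1 lower call (5.56%), and 6 of the 12 without a call did not reach 1 RPKM. For all genes these shares were 9.70% and 19.8%, and for genes at 5 RPKM or more 13.9% and 36.1%. The small membrane subunit cox8a (ENSDARG00000095273) rose to 186 RPKM at 10 hpf, against 31.8 RPKM at 6 hpf, a ratio of 5.86. Next were cox6a1, with 106 RPKM at 10 hpf and 28.8 RPKM at 6 hpf (3.68-fold), and cox6c, with 109 RPKM at 10 hpf and 30.8 RPKM at 6 hpf (3.54-fold). The gene cox7b had 107 RPKM at 10 hpf and 35.0 RPKM at 6 hpf. The regulatory ATP-binding subunit cox4i1 stood beside them in level, with 234 RPKM at 10 hpf and 77.9 RPKM at 6 hpf, without a call.

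The most abundant, cox7c, had 243 RPKM at 10 hpf and 212 RPKM at 6 hpf, and cox5aa had 123 RPKM at 10 hpf and 98.0 RPKM at 6 hpf. Values of cox6b2, which faces the intermembrane space, were 75.3 RPKM at 10 hpf and 83.9 RPKM at 6 hpf. The gene cox7a3 is listed under the symbol cox7a2l in RefSeq, a factor that links complexes III and IV into supercomplexes. It was called lower at 56.8 RPKM at 10 hpf and 80.7 RPKM at 6 hpf, and the call was not kept after centring. The median of the group depends on the genes counted: it was 0.95 over 12 members at 1 RPKM or more and 0.33 over 11 members at 5 RPKM or more.

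In the ATP synthase 4 of 17 members were called higher (23.5%) and 1 lower (5.88%), where all genes had 9.70% and 19.8%. At 5 RPKM or more the shares of all genes were 13.9% and 36.1%. The OSCP gene atp5o (ENSDARG00000001788), part of the stalk that holds the catalytic head, rose to 54.3 RPKM at 10 hpf, against 9.06 RPKM at 6 hpf, a ratio of 6.00. The membrane subunit g gene atp5l had 109 RPKM at 10 hpf and 22.4 RPKM at 6 hpf (4.86-fold). The stalk subunit b gene atp5f1 had 54.5 RPKM at 10 hpf and 12.8 RPKM at 6 hpf (4.27-fold), and the catalytic beta subunit gene atp5b had 199 RPKM at 10 hpf and 47.6 RPKM at 6 hpf (4.19-fold).

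The 5 genes of the catalytic head (atp5a1, atp5b, atp5c1, atp5d and atp5e) summed to 563 RPKM at 10 hpf and 200 RPKM at 6 hpf, a ratio of 2.82. Of these, atp5a1, the alpha subunit, had 204 RPKM at 10 hpf and 77.7 RPKM at 6 hpf without a call. The smallest ratio in the head was that of the delta subunit atp5d, 1.74, with 58.1 RPKM at 10 hpf and 33.4 RPKM at 6 hpf. Outside the head, atp5j2 (subunit f) had 19.4 RPKM at 10 hpf and 18.2 RPKM at 6 hpf. The lower call fell on atp5s, at 0.964 RPKM at 10 hpf and 1.82 RPKM at 6 hpf, and was not kept after centring. This gene carries the current name DMAC2L and was caught by its older symbol. It is counted in the 17 members, although it is not a part of the rotor, stalk or head.

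**Figure D3:**
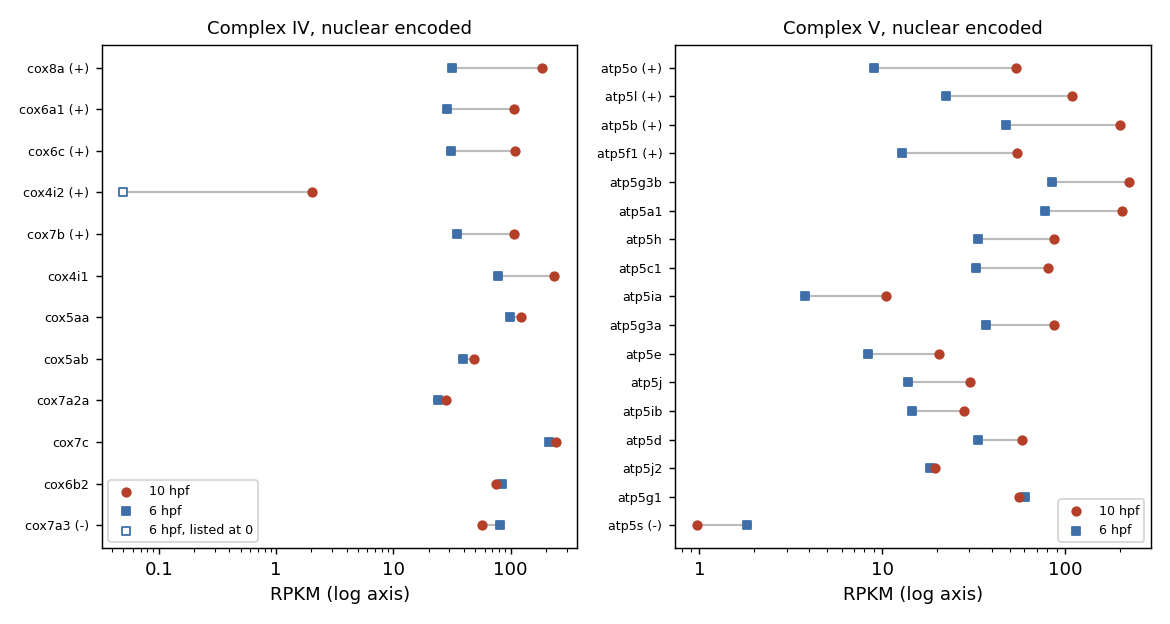
RPKM of nuclear subunits of complex IV and complex V at 1 RPKM or more (log axis) at 10 hpf (red circles) and 6 hpf (blue squares), sorted by ratio with the highest on top; (+) marks a higher and (-) a lower call of the authors, and the open square marks cox4i2, listed at 0 at 6 hpf and drawn at the left edge. In complex IV 6 genes are at least 2-fold higher at 10 hpf and the others have ratios between 0.704 (cox7a3) and 1.26, while in complex V 12 of 17 are at least 2-fold higher.

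Mitochondrially encoded mRNAs took 1.32% of the read total behind the RPKM values at 10 hpf (95% Wilson interval 1.32 to 1.33) and 1.53% at 6 hpf (1.52 to 1.53), where the intervals cover counting error only. They are transcribed from both strands of the circular genome as long precursors and cut apart, so that their levels need not follow those of nuclear genes. The most abundant was mt-co1, with 2548 RPKM (91849 reads) at 10 hpf and 3143 RPKM (82836 reads) at 6 hpf. Together the 3 genes of complex IV made up 51.2% of mitochondrial mRNA reads at 10 hpf and 56.4% at 6 hpf. The 7 genes of complex I made up 25.3% at 10 hpf and 19.5% at 6 hpf.

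The 5 lower calls in the authors' deposited table fell on mt-co1, mt-co2, mt-co3, mt-atp6 and mt-cyb, which with mt-atp8 were the 6 most abundant of these mRNAs at 10 hpf and the 5 most abundant at 6 hpf. Their RPKM ratios of 10 hpf over 6 hpf ran from 0.718 for mt-co2 (exact 95% counting interval 0.706 to 0.730) to 0.839 for mt-atp6 (0.826 to 0.853). The level of mt-co2 was 1718 RPKM at 10 hpf and 2394 RPKM at 6 hpf, and that of mt-cyb, the catalytic cytochrome b of complex III, 1172 RPKM at 10 hpf and 1560 RPKM at 6 hpf. For mt-co3 it was 2088 RPKM at 10 hpf and 2674 RPKM at 6 hpf, a ratio of 0.781. None of these 5 calls was kept after centring (0 of 5). Their ratios lie below that of the median gene (1.06) by less than 2-fold.

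On the RPKM scale the ratios of the 7 mitochondrial genes of complex I, 0.883 to 1.38, lay above those of the 3 genes of complex IV, 0.718 to 0.811. On the scale of the authors' fold all of the 13 except mt-atp8 lie below 1. The 2 that lie nearest to the ribosomal RNA genes, mt-nd1 and mt-nd2, had ratios of 1.27 (1.24 to 1.302) and 1.38 (1.34 to 1.41), with 679 and 774 RPKM at 10 hpf against 535 and 563 RPKM at 6 hpf. Those of mt-nd4 and mt-nd5 were 1.01 (0.988 to 1.03) and 1.02 (0.994 to 1.05), with 596 and 322 RPKM at 10 hpf against 590 and 316 RPKM at 6 hpf. For mt-nd4l the ratio was 1.15 (1.09 to 1.22), at 472 RPKM at 10 hpf and 409 RPKM at 6 hpf. Lower ratios were those of mt-nd3, 0.883 (0.829 to 0.940), at 269 RPKM at 10 hpf and 305 RPKM at 6 hpf, and mt-nd6, 0.906 (0.870 to 0.943), at 453 RPKM at 10 hpf and 500 RPKM at 6 hpf. None of the 7 was called (0 of 7), beside 29.5% of all genes called either way. Among genes at 5 RPKM or more 13.9% were called higher and 36.1% lower. The mt-nd6 gene lies on the other strand from its neighbours, and the labels do not say whether the libraries kept strand.

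The largest ratio of the 13 was that of mt-atp8 (ENSDARG00000063910), which encodes a small subunit of the ATP synthase. It had 1993 RPKM (7644 reads) at 10 hpf and 1028 RPKM (2883 reads) at 6 hpf, a ratio of 1.94 (1.86 to 2.02), and was not called. The gene overlaps mt-atp6 and shares a transcript with it, yet mt-atp6 stood at 2113 RPKM at 10 hpf and 2517 RPKM at 6 hpf. The ratio of mt-atp8 to mt-atp6 was therefore 0.943 at 10 hpf and 0.409 at 6 hpf. For mt-nd4l and mt-nd4, the other overlapping pair on 1 transcript, it was 0.792 at 10 hpf and 0.694 at 6 hpf. At 165 bases mt-atp8 is the shortest of the 13 genes, followed by mt-nd4l with 297 bases, and the part of gene length in these ratios was not tested.

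**Figure D4:**
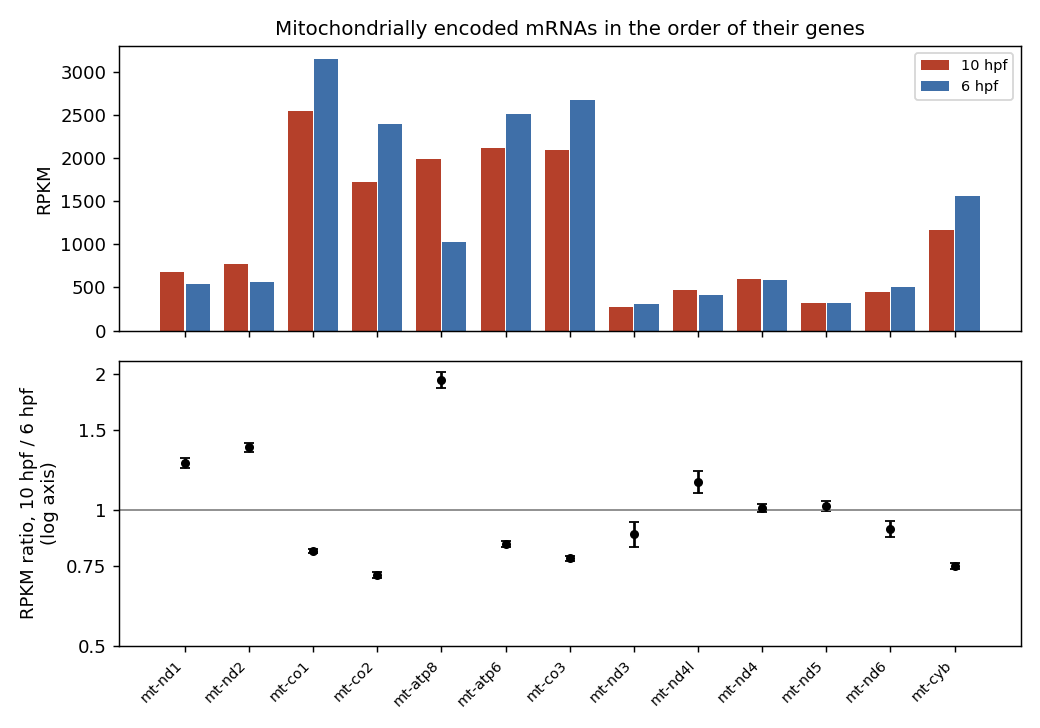
The 13 mitochondrial mRNAs in the order of their genes, starting after the ribosomal RNA genes: RPKM at 10 hpf (red) and 6 hpf (blue) above, and the ratio of 10 hpf over 6 hpf (log axis) below, with exact 95% intervals that cover counting error only. The ratio is highest for mt-atp8 (1.94) and lowest for mt-co2 (0.718).

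Nuclear and mitochondrial genes were also set side by side within each complex. In complex IV the 18 nuclear members summed to 1320 RPKM at 10 hpf and 743 RPKM at 6 hpf (ratio 1.78), and the 3 mitochondrial ones to 6354 RPKM at 10 hpf and 8211 RPKM at 6 hpf (ratio 0.774). In complex III the 9 nuclear members had a ratio of sums of 1.43, and mt-cyb one of 0.751. For complex V these were 2.58 for 17 nuclear members and 1.16 for the 2 mitochondrial ones. That 1.16 joins a ratio of 1.94 for the short mt-atp8 and one of 0.839 for mt-atp6, so it gives no common direction. For complex I the ratios of sums were 1.22 for 40 nuclear subunits and 1.11 for the 7 mitochondrial ones. Among the nuclear subunits of complex I, those of the core had a ratio of 2.61. The accessory subunits had one of 1.11, at 891 RPKM at 10 hpf and 804 RPKM at 6 hpf. Counted there are the 4 ndufa4 relatives, which summed to 136 RPKM at 10 hpf and 209 RPKM at 6 hpf. The mammalian NDUFA4 protein was found in complex IV, but the complex IV sums above leave these genes out. Without them the accessory subunits summed to 755 RPKM at 10 hpf and 595 RPKM at 6 hpf, a ratio of 1.27. Ratios under 1.52 turn below 1 on the scale of the authors' fold, which concerns all 4 mitochondrial sums and the nuclear sums of complex III and of the complex I accessory subunits and whole.

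The zebrafish lineage went through an extra genome duplication. Here 15 families of members hold more than 1 gene, 35 genes in all, and the origin of the copies was not tested. At both stages the same copy led in 15 of the 15 families, and in 8 of them it made up over 90% of the summed RPKM. Copies with high sequence identity may share reads, so splits between copies are uncertain. Of the 35 genes, 8 stayed under 1 RPKM at both stages.

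Heart and muscle isoforms known from mammals were near 0. The genes cox6a2 and cox7a1, named after the muscle forms, were listed at 0.0603 and 0.0452 RPKM at 10 hpf and at 0 at 6 hpf, while their partners cox6a1 and cox7a2a had 106 and 28.3 RPKM at 10 hpf and 28.8 and 24.1 RPKM at 6 hpf. The muscle-type cox8b was listed at 0 at 10 hpf and at 0.589 RPKM at 6 hpf. Markers of heart and skeletal muscle, 8 genes, summed to 2.40 RPKM at 10 hpf and 2.32 RPKM at 6 hpf, and myl7 and cmlc1 of the heart were listed at 0 at both stages.

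Some families did show a second copy. The gene cox4i2, whose mammalian counterpart is used in place of cox4i1 under low oxygen, was called higher at 2.01 RPKM at 10 hpf and listed at 0 at 6 hpf. It was 0.848% of the cox4 family at 10 hpf, and cox4i1l was listed at 0 at both stages. In the pair uqcrc2a and uqcrc2b, uqcrc2a made up 33.3% of the summed RPKM at 10 hpf and 14.7% at 6 hpf, with uqcrc2b at 37.7 RPKM at 10 hpf and 39.8 RPKM at 6 hpf. The larger share came with uqcrc2a, whose 2.76-fold difference was not called.

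Subunit c of the ATP synthase, which forms the rotor ring, is encoded by 3 genes here. In mammals such genes encode the same mature protein with different import sequences. At 10 hpf atp5g3b, atp5g3a and atp5g1 had 224, 86.8 and 56.1 RPKM, and at 6 hpf 84.9, 36.9 and 60.6 RPKM. The share of atp5g1 was 15.3% at 10 hpf and 33.2% at 6 hpf, while the family sum was 2.01 times as high at 10 hpf. By contrast, the cox5aa and cox5ab copies of complex IV kept nearly the same split, with cox5aa at 71.6% at 10 hpf and 71.4% at 6 hpf.

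Further copies were scarce. The pair sdhda and ndufs8b were listed at 0.184 and 0.172 RPKM at 10 hpf and at 0 at 6 hpf, against partners sdhdb and ndufs8a with 7.26 and 31.4 RPKM at 10 hpf. Similarly, cox6b1 stood at 0.272 RPKM at 10 hpf and 0 at 6 hpf, and cycsa was listed at 0 at both stages. The falling ndufa9b made up 2.002% of its family at 10 hpf and 12.4% at 6 hpf, beside ndufa9a with 17.0 RPKM at 10 hpf and 12.3 RPKM at 6 hpf.

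**Figure D5:**
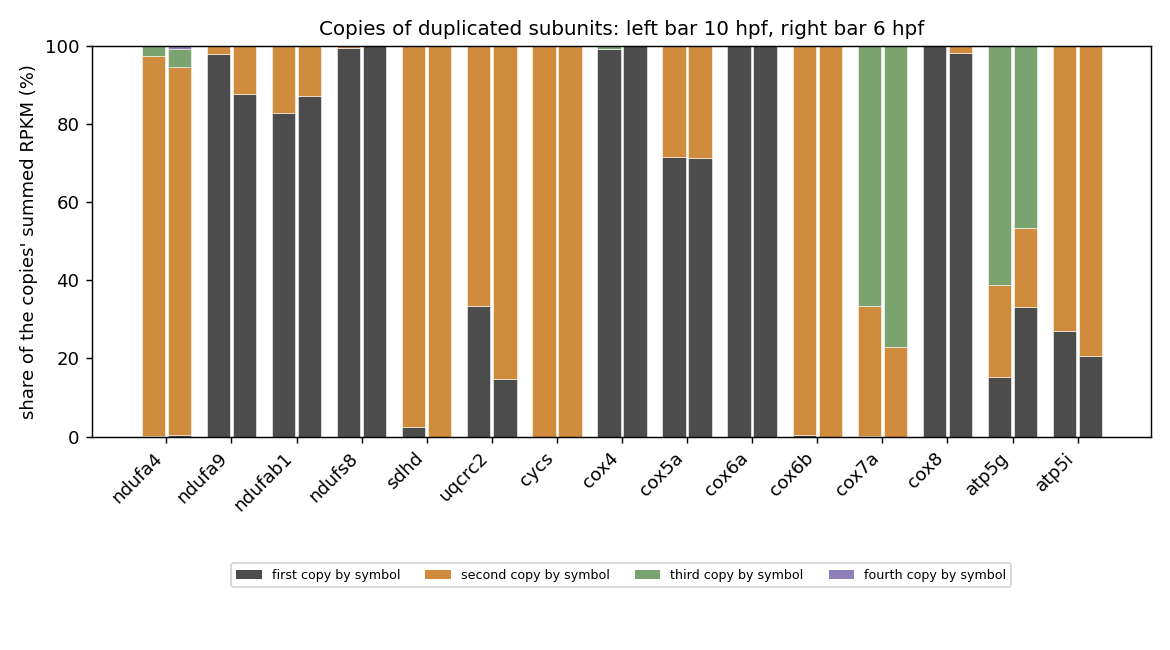
Share of each copy in the summed RPKM of its family (vertical axis, percent), for 15 families with more than 1 gene; in each pair the left bar is 10 hpf and the right bar 6 hpf, and colours follow the order of the symbols within a family. Shares differ between stages mainly in atp5g, uqcrc2, ndufa9 and cox7a, and the leading copy is the same at both stages in all 15.

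The rule is written in lower case and so leaves out 7 genes that the table names in capitals. Of these, a pair annotated as COX5B, a subunit of complex IV, stood in contrast. The copy ENSDARG00000015978 had 217 RPKM at 10 hpf and 101 RPKM at 6 hpf without a call, and ENSDARG00000011208 fell to 0.296 RPKM at 10 hpf, against 6.74 RPKM at 6 hpf, a 22.8-fold lower level. The member cox5b2 of the same family was listed at 0.0809 RPKM at 10 hpf and at 0 at 6 hpf. NDUFB4 and NDUFC1, subunits of complex I, had 12.4 and 11.5 RPKM at 10 hpf, against 7.37 and 10.04 RPKM at 6 hpf.

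Other genes of the same machinery were taken from 4 lists. The first held 61 matched factors that assemble the complexes, attach their cofactors, make ubiquinone or feed it with electrons. Of the 61, 15 were called higher (24.6%), 8 lower (13.1%) and 38 not, 3 of the lower calls being kept after centring. All genes had 9.70% higher and 19.8% lower calls, and genes at 5 RPKM or more 13.9% and 36.1%. The median log2 RPKM ratio of the list, over 58 genes at 1 RPKM or more, was 0.66, beside 0.67 for nuclear subunits and 0.14 for all genes. The complex III assembly factor uqcc2 rose to 11.01 RPKM at 10 hpf, against 2.07 RPKM at 6 hpf. The complex IV assembly factor coa3b and the ubiquinone synthesis enzyme coq6 stood at 5.98 and 5.49 RPKM at 10 hpf, against 1.39 and 1.51 RPKM at 6 hpf. The more abundant coa3a, named after its values were seen, was not called at 15.7 RPKM at 10 hpf and 16.8 RPKM at 6 hpf. Genes called lower included the complex IV factors coa5 and cox16, at 12.3 and 7.90 RPKM at 10 hpf and 29.3 and 14.6 RPKM at 6 hpf. The most abundant gene of this list, higd1a, was called lower as well, at 16.3 RPKM at 10 hpf and 34.9 RPKM at 6 hpf.

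The list of mitochondrial DNA maintenance and transcription, 32 genes, held 4 higher calls (12.5%) and 2 lower ones (6.25%), with a median log2 RPKM ratio of 0.46. Of all genes 9.70% were called higher and 19.8% lower, and of genes at 5 RPKM or more 13.9% and 36.1%. The mitochondrial RNA-binding protein gene fastkd2 had 5.99 RPKM at 10 hpf and 0.548 RPKM at 6 hpf. The ribonucleotide reductase subunit rrm2b, which supplies deoxynucleotides, had 44.4 RPKM at 10 hpf and 10.4 RPKM at 6 hpf, and the tRNA-processing subunit trmt10c 8.34 RPKM at 10 hpf and 2.39 RPKM at 6 hpf. Lower calls fell on hsd17b10, a partner of trmt10c in the same enzyme, at 11.4 RPKM at 10 hpf and 29.7 RPKM at 6 hpf, and on ssbp1, the single-strand DNA-binding protein, at 23.4 RPKM at 10 hpf and 34.7 RPKM at 6 hpf. The call of ssbp1 was not kept after centring. A gene annotated as top1mt, the mitochondrial topoisomerase, was the most abundant, with 40.2 RPKM at 10 hpf and 29.3 RPKM at 6 hpf. The core transcription factor tfam, named after its value was seen, was not called at 25.5 RPKM at 10 hpf and 7.42 RPKM at 6 hpf.

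Of 28 transcriptional regulators linked to respiratory genes, 5 had a higher call (17.9%) and 7 a lower one (25.0%). After centring 2 of the lower calls were kept, and the median log2 RPKM ratio was 0.04. Shares over all genes were 9.70% higher and 19.8% lower, and over genes at 5 RPKM or more 13.9% and 36.1%. The estrogen-related receptor gene esrra rose to 10.96 RPKM at 10 hpf, against 0.668 RPKM at 6 hpf, a ratio of 16.4. Its coactivators ppargc1a and ppargc1b, named after their values were seen, were called higher at 1.47 and 1.54 RPKM at 10 hpf, against 0.226 and 0.0671 RPKM at 6 hpf. In the same list pprc1 and esrrga, also named after their values were seen, went the other way. They were called lower at 82.9 and 1.15 RPKM at 10 hpf, against 101 and 2.88 RPKM at 6 hpf. The call of esrrga was kept after centring and that of pprc1 was not. Among genes at 5 RPKM or more the lower calls with the largest folds were the zinc-finger factor yy1a and the genes annotated as hif1al and hcfc1b, with 50.7, 68.8 and 34.4 RPKM at 10 hpf against 101, 117 and 49.5 RPKM at 6 hpf. Of these 3 calls that of yy1a was kept after centring. Nuclear respiratory factor 1, nrf1, was not called at 25.7 RPKM at 10 hpf and 14.8 RPKM at 6 hpf.

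Among 23 genes of uncoupling and of defence against reactive oxygen, 5 had a higher call (21.7%) and 3 a lower one (13.04%). All 3 lower calls were kept after centring, and the median log2 RPKM ratio was 0.93. For all genes the shares were 9.70% higher and 19.8% lower, and for genes at 5 RPKM or more 13.9% and 36.1%. The lipid peroxide-reducing gpx4a rose to 105 RPKM at 10 hpf, against 12.9 RPKM at 6 hpf, and the peroxiredoxin gene prdx5 to 43.2 RPKM at 10 hpf, against 10.02 RPKM at 6 hpf. Catalase (cat) fell to 1.14 RPKM at 10 hpf, against 6.34 RPKM at 6 hpf, and the mitochondrial superoxide dismutase sod2 to 8.14 RPKM at 10 hpf, against 20.3 RPKM at 6 hpf. The uncoupling protein gene annotated as ucp3 was the most abundant, with 80.6 RPKM at 10 hpf and 147 RPKM at 6 hpf.

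Markers of tissues outside the embryo proper also differed between the stages. All 4 markers of the yolk syncytial layer (apoa2, apobb.1, apoba and apoa1b) were called higher, with summed RPKM of 1575 at 10 hpf and 93.5 at 6 hpf. Most of these sums was apoa1b, with 1377 RPKM at 10 hpf and 90.5 RPKM at 6 hpf. Of 4 markers of the enveloping layer (krt4, krt5, cldne and grhl3), 2 were called lower and 2 not, with sums of 3848 RPKM at 10 hpf and 2459 RPKM at 6 hpf. Shares over all genes were 9.70% higher and 19.8% lower, and over genes at 5 RPKM or more 13.9% and 36.1%. None of the 8 marker genes was at 0. The part of these layers in the levels of respiratory genes was not tested.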

How the data were processed

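Embryos were freed of the chorion by hand and their total RNA was extracted with Trizol and sequenced on Illumina libraries, per the labels' protocols. The submitters' processing notes name TopHat2 2.1.1 and build GRCz10; the counting program, annotation and strand setting were not stated in the labels. The authors deposited 1 table with RPKM values for 6 hpf and, combined over 2 libraries, for 10 hpf, per the file headers. The same table holds the authors' log2 fold, a conservative form of it (GFOLD at 0.01) and an empirical false discovery rate, which the authors deposited as q-values. It has 1 value per stage, so neither an SD nor a test of the difference could be had.

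Computed here (Python 3.11.15, pandas 2.3.3, scipy 1.17.1) were RPKM ratios, log2 ratios with a pseudocount of 1 over members at 1 RPKM or more, sums, and centred calls. For these the median authors' fold over genes that reach 5 RPKM (−0.50) was taken off the conservative fold, and a call was kept where the sign held. Read totals were scanned for values at which the mitochondrial genes gave whole reads; tested on simulated data for the 13 mitochondrial genes, 10 of 10 totals were recovered within 200 reads. Lists were matched by deposited symbol or, where none fitted, by current symbol, so matches of the second kind carry another deposited symbol. An entry deposited as rpl37 is counted in this way in the first list. Members, lists and the naming rule were chosen with earlier results of these data known. The rule named, per group, up to 3 genes each with the highest level, the largest ratio and the smallest ratio, all mitochondrial mRNAs, calls kept after centring and copies that differ in call, and per list up to 3 calls each way at 5 RPKM or more and the most abundant gene; other members named were chosen after their values were seen, to show the partners beside them. Alternatives were other pseudocounts, levels, thresholds, totals, scales and member sets. Sequences and promoter motifs were not analysed here. A core gene of complex I counted in the totals is not reported here.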

Additional observations from a re-analysis of the deposited data

How the results depend on the processing

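Over 25 results, 119 values were computed under other settings. A count or ratio was taken as close to the reported one when it lay within 1.5 times of it. A log2 median was taken as close when it kept its sign and moved by less than a 1.5-fold change after conversion to a ratio, so that small medians can shrink to near 0 and still be close. This held for 105. Some of these values could hardly differ, so the number is no measure of stability. Leaving the mitochondrial mRNAs out of the totals, which gave 21 of them, rescales all genes by little. Centring cannot remove a higher call, and a minimum of 5 RPKM leaves out no mitochondrial mRNA. The 10 lower calls of nuclear members became 6 at a false discovery rate under 0.01, 6 at 5 RPKM or more and 4 after centring. The 5 lower calls of mitochondrial mRNAs became 2 at 0.01 and 0 after centring. With the fold from the authors' deposited table in place of the RPKM ratio, the medians of accessory subunits and complex I assembly factors turned negative (−0.19 and −0.080 in place of 0.38 and 0.41), and those of mitochondrial mRNAs and complex IV were −0.76 and 0.33. Medians counted as close under that fold were 0.09 for nuclear subunits, 0.27 for complex II, 0.07 for complex III and −0.59 for complex II assembly factors. The cause of the 0.60 offset was not tested. The complex IV median was 0.26 with no minimum level, 0.33 at 5 RPKM or more and 0.33 with the 7 capital-letter genes, an alternative chosen after seeing the data. Ratios of sums without the most abundant member were 1.96 for complex I and 1.81 for complex II assembly factors, against 1.16 and 1.17 with it. Promoter motifs were not run. No paired analysis was possible because only 1 library has the 6 hpf stage and the table holds 1 value per stage, and for the same reason no library could be left out.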
